A study of Mus musculus with 48 samples.

Results

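The genes F3, Tfpi, F2r, Thbs1, Plau, Plat and Plaur, which regulate clotting and the removal of fibrin, were followed in mouse lung. They were chosen by symbol, as the rows of the deposited table with these names, and all 7 were found among its 47561 genes. RNA sequencing of polyA-selected whole lung RNA was available for 48 mice, 3 in each of 16 groups, with 1 library per mouse. The groups combined strain (C3H/hen or C57Bl/6 in the labels, written C3H and C57B here), sex, a single injection of saline or of aurothioglucose (ATG, a gold drug known to block thioredoxin reductase) at a dose of 25 mg/kg, and 96 h in room air or in hyperoxia of more than 95% oxygen. All mice were adult and unmodified, every mouse had an injection, and C3HM, C57BM, C3HF and C57BF stand for the males and females of each strain. Only the sample labels name saline for 24 of the mice, since the series description has every mouse given ATG.

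Clotting in tissue starts when tissue factor, the product of F3, meets factor VII of the plasma, and it is held in check by tissue factor pathway inhibitor, the product of Tfpi. Thrombin made in this way converts fibrinogen to fibrin and signals to cells through protease activated receptors, of which F2r encodes PAR1, while thrombospondin 1, the product of Thbs1, is an adhesive protein of platelet granules and matrix. Fibrin is removed by plasmin, which is made from plasminogen by the urokinase and tissue-type activators encoded by Plau and Plat, with Plaur encoding the receptor that holds urokinase at the cell surface.

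On GRCm38, the assembly also known as mm10, the protein coding gene F3 (ENSMUSG00000028128) lies at chr3:121723537-121735048 on the plus strand. Tfpi (ENSMUSG00000027082) lies at chr2:84432855-84476775 on the minus strand, F2r (ENSMUSG00000048376) at chr13:95601803-95618487 on the minus strand and Thbs1 (ENSMUSG00000040152) at chr2:118111876-118127133 on the plus strand. Plau (ENSMUSG00000021822) lies at chr14:20836660-20843385, Plat (ENSMUSG00000031538) at chr8:22757727-22782844 and Plaur (ENSMUSG00000046223) at chr7:24462484-24475968, all on the plus strand. At most 0.509% of the 30-base sequences of each of the 7 genes also occur in transcripts of other genes, so that few reads could have been divided with near-identical copies.

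The sequences before the start sites of F3, Plaur, F2r and Tfpi are shown because these were the only ones of the 7 genes available here. Plau, Plat and Thbs1, which also rose in hyperoxia in saline mice, could not be searched. The 4 sequences were taken from RefSeq on GRCm38.p6. They run 5′ to 3′ on the strand of the gene up to the start site or, for Tfpi and F2r, to the last base before the annotated gene. Capitals mark matches to TGANTCA, the site bound by AP-1 (Fos and Jun dimers), which was searched on both strands. F3 spans chr3:121723287-121723536, Plaur chr7:24462233-24462482, F2r chr13:95618488-95618716 and Tfpi chr2:84476776-84477009.
F3: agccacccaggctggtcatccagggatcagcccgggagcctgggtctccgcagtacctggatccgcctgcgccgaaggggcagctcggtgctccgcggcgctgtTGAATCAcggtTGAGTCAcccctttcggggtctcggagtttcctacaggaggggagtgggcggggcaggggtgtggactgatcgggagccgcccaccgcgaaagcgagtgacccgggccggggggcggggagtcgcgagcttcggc
Plaur: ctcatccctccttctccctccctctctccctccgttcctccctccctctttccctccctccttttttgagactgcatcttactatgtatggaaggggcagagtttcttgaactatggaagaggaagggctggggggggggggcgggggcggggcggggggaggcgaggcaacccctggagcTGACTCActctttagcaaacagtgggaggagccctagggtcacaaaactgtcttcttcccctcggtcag
F2r: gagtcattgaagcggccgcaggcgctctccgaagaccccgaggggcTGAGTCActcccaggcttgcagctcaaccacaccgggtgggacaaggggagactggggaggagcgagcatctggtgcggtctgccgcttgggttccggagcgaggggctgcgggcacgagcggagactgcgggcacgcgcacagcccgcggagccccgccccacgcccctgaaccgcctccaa
Tfpi: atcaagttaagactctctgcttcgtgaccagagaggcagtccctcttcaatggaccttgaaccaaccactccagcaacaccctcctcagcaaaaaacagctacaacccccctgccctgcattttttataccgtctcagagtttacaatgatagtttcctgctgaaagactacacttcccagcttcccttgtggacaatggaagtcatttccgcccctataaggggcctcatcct
F3 had 2 matches, 129 to 135 and 140 to 146 bases before the start. Plaur had 1 match at 63 to 69 bases and F2r 1 match at 198 to 204 bases before the start, whereas these letters were not in the 250 bases before either start site listed for Tfpi. Distances are counted from the RefSeq start site, which for F2r lies inside the annotated gene, past the last base printed. Among 32851 promoters of the same length, 6.749% held the motif. CRE (TGACGTCA), TATA box (TATAAA), GC box (GGGCGG) and Egr1 (GCGNGGGCG) letters were searched in the same way. The GC box (32.742% of promoters) was found in F3, Plaur, F2r and Tfpi. The TATA box (12.368%) was found in Tfpi alone, Egr1 (4.697%) in Plaur alone and CRE (1.546%) in none of these. A match to a motif is a description of the sequence and does not show that a factor was bound.

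FPKM are fragments scaled to the length of the gene and to the mapped fragments of the library, so that levels can be compared between genes. The sum of FPKM was between 510933 and 748290 per mouse. The club cell transcript Scgb1a1 alone made up 10.4% to 30.2% of the sum in the saline room air mice and 1.2% to 6.46% in the saline hyperoxia mice. Other scalings are named where they changed the sign or the call of a result given here for a gene. Genes of chromosomes X, Y and M were at 0 in every mouse, so the labelled sex could not be checked. The C3HM saline room air mice 1 and 3 stood apart in an earlier analysis (mouse 1 had the highest club cell sum and mouse 3 the highest red cell sum of that condition), and results that rest on them are given with and without them. In whole lung, fewer cells of a type and less RNA per cell cannot be told apart.

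In room air, F2r was the most abundant of the 7 transcripts, with a median of 65.9 FPKM in the saline mice. Plaur (37.7), Thbs1 (30.4), F3 (28.8), Tfpi (21.2), Plat (15.5) and Plau (5.66) followed by their medians in FPKM. F2r was above Plaur in 11 of 12 mice and Plat above Plau in 11 of 12, whereas Thbs1 was above F3 in 6 of 12 mice and Tfpi above Plat in 7 of 12, so that the order of these middle pairs was not settled by the mice. In hyperoxia F3 was first, with a median of 435 FPKM in the saline mice and 319 FPKM in the ATG mice, and Tfpi and Plau were last. F3 was above Thbs1 in 8 of 12 saline mice and in 10 of 12 ATG mice in hyperoxia.

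**Figure D1:**
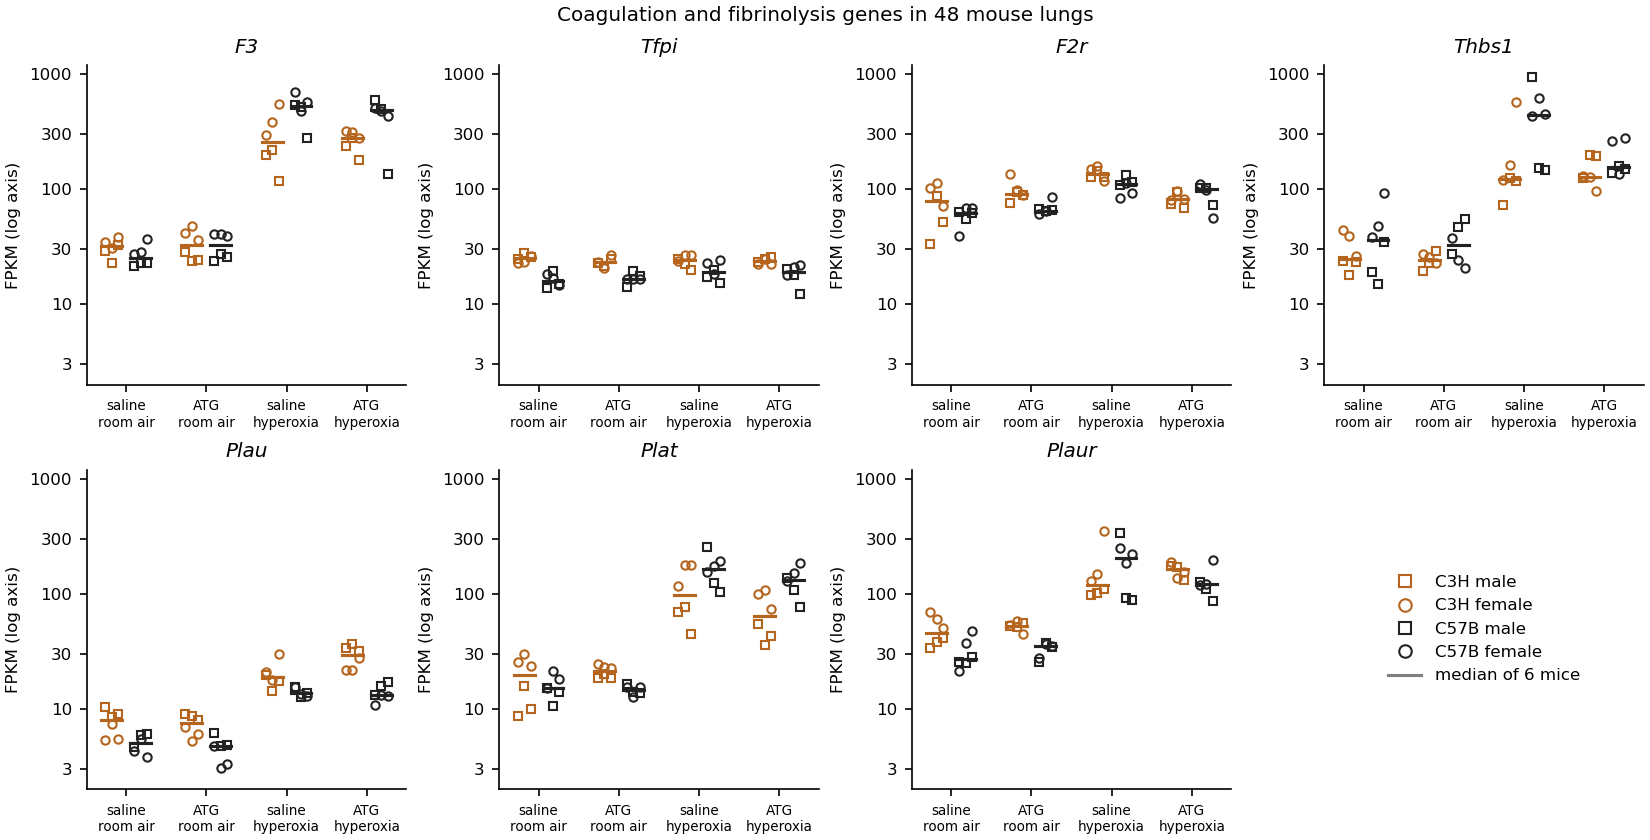
FPKM of the 7 genes in each of the 48 mice on a log axis, by injection and air, with squares for males, circles for females, colour for strain and lines in the strain colour for the median of 6 mice. F3, Plau, Plaur and Plat are higher in every hyperoxia mouse than in every room air mouse of the same injection, whereas the Tfpi values lie between 12.4 and 27.8 FPKM in all conditions.

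Of the 7 genes, 6 were higher in hyperoxia than in room air in the saline mice, and Tfpi did not pass the test. The differences were largest for F3, Thbs1 and Plat, intermediate for Plaur and Plau, and smallest for F2r. The test was limma on log2(FPKM + 1) in 12 against 12 mice with Benjamini-Hochberg adjustment over 16321 genes, and a log2 fold change on this scale understates the change of low transcripts. Of all genes tested, 60.1% passed the threshold and 31.8% were higher in hyperoxia, so that 6 of 7 higher is to be read against this background. The median log2 fold change was 2.03 over the 7 genes and 0.013 over all genes.

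F3, the initiator, was between 21.65 and 38.2 FPKM (median 28.8) in the saline room air mice and between 117 and 709 FPKM (median 435) in the saline hyperoxia mice. Every hyperoxia mouse was at least 3 times the highest room air mouse. The log2 fold change was 3.62 ± 0.13 (SE, adjusted p = 3.65e-14, limma), which ranked 13 among the 16321 genes tested.

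Tfpi, the inhibitor that acts on tissue factor and factor VIIa, was between 13.9 and 27.8 FPKM (median 21.2) in saline room air and between 15.4 and 26.8 FPKM (median 22.6) in saline hyperoxia. The ranges of the conditions covered each other almost fully. Its log2 fold change was 0.083 ± 0.070 (SE, adjusted p = 0.318, limma), and it was below 0 when the mice were scaled by their median ratio (-0.019) or quantile normalized (-0.020).

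F2r, the thrombin receptor, was between 33.4 and 113 FPKM (median 65.9) in saline room air and between 84.9 and 161 FPKM (median 122.5) in saline hyperoxia. The groups overlapped, with 8 of 12 hyperoxia mice above every room air mouse. A log2 fold change of 0.90 ± 0.13 (SE, adjusted p = 5.09e-06, limma) was found.

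Thbs1 was between 15.1 and 92.3 FPKM (median 30.4) in saline room air and between 72.8 and 955 FPKM (median 158) in saline hyperoxia. In 11 of 12 hyperoxia mice it was above every room air mouse, and 2 mice, mouse 19 (C57BM, 955 FPKM) and mouse 33 (C3HF, 579 FPKM), were among the highest. The log2 fold change was 2.90 ± 0.29 (SE, adjusted p = 5.46e-08, limma), with the largest standard error of the 7 genes.

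The urokinase gene Plau was the lowest of the 7 transcripts, between 3.81 and 10.4 FPKM (median 5.66) in saline room air and between 12.5 and 29.7 FPKM (median 15.4) in saline hyperoxia. No hyperoxia mouse was as low as a room air mouse. Plau had a log2 fold change of 1.30 ± 0.09 (SE, adjusted p = 2.85e-10, limma).

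Plat, which encodes tissue-type plasminogen activator, was between 8.61 and 29.5 FPKM (median 15.5) in saline room air and between 44.1 and 252 FPKM (median 139) in saline hyperoxia. Here too the groups did not overlap. Plat had a log2 fold change of 2.88 ± 0.14 (SE, adjusted p = 1.69e-12, limma) and ranked 36 among the genes tested.

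Plaur, the urokinase receptor, was between 21.2 and 69.0 FPKM (median 37.7) in saline room air and between 88.3 and 352.5 FPKM (median 139) in saline hyperoxia. Mice 33 (352.5 FPKM) and 19 (333 FPKM) were the highest, and the groups did not overlap. Plaur had a log2 fold change of 2.03 ± 0.20 (SE, adjusted p = 3.27e-08, limma). For F3, Plau, Plaur and Plat every hyperoxia mouse was thus above every room air mouse, which held for 5.61% of all genes tested. Leaving out each of the 24 mice in turn, or mice 1 and 3 or mice 19 and 33 together, did not change any of these 7 calls.

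The same 5 genes other than F2r and Tfpi rose in the ATG mice, and in each of the 5 every hyperoxia mouse was above every room air mouse. Of 16206 genes tested in the ATG mice, 61.8% passed the threshold, 35.8% were higher in hyperoxia, and 8.82% were higher in every hyperoxia mouse than in every room air mouse. F3 was between 23.6 and 48.0 FPKM (median 32.7) in ATG room air and between 136 and 600 FPKM (median 319) in ATG hyperoxia, a log2 fold change of 3.30 ± 0.16 (SE, adjusted p = 8.69e-13, limma). Mouse 24 (C57BM), at 136 FPKM, was the lowest of the ATG hyperoxia mice. The log2 fold changes of the others were 2.44 ± 0.14 for Thbs1 (median 26.5 to 145 FPKM), 2.29 ± 0.09 for Plat (17.3 to 103 FPKM), 1.73 ± 0.10 for Plaur (40.7 to 134 FPKM) and 1.64 ± 0.07 for Plau (5.59 to 19.2 FPKM), each with its SE. Tfpi (0.074 ± 0.072, adjusted p = 0.387, limma) and F2r (0.086 ± 0.105, adjusted p = 0.495, limma) did not pass the test, and both values were below 0 under median ratio scaling and quantile normalization.

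**Figure D2:**
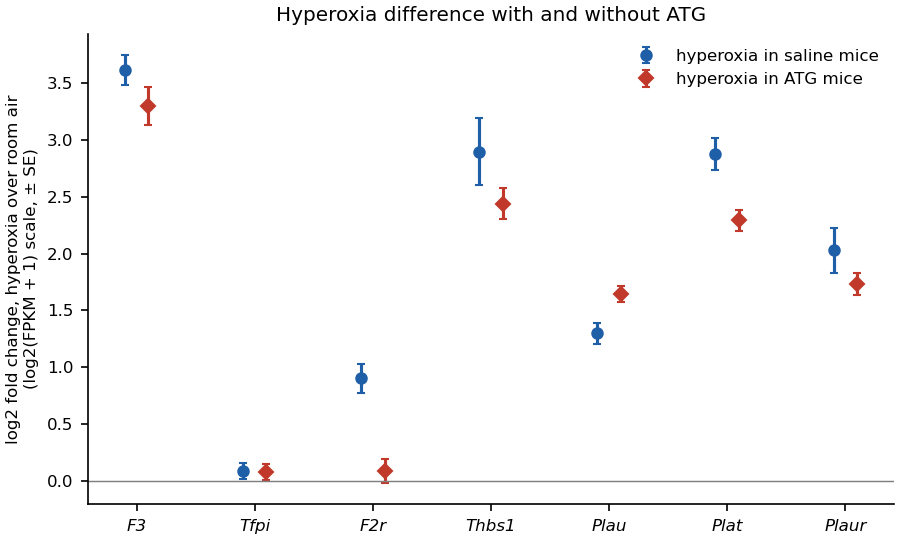
Log2 fold change of hyperoxia over room air for each of the 7 genes on the log2(FPKM + 1) scale, with bars for ± SE, in the 24 saline mice and in the 24 ATG mice. F3 is highest in both (3.62 and 3.30), Tfpi is near 0 in both, and F2r is at 0.90 in the saline mice and 0.086 in the ATG mice.

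Whether ATG changed these genes was asked within each air. In room air none of the 7 passed the test between 12 ATG and 12 saline mice (limma, adjusted p of at least 0.690), and 0.0185% of all genes tested did. At an unadjusted p under 0.05 there were 2, F3 with 0.17 ± 0.07 (SE) and F2r with 0.32 ± 0.13 (SE) on the log2 scale, ATG minus saline. Over all genes this count was 1077, and 3 genes passed the adjusted threshold.

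In hyperoxia, F2r was lower in the ATG mice than in the saline mice, and no other of the 7 genes passed the test, against 5.47% of all genes. F2r was between 84.9 and 161 FPKM (median 122.5) in the saline hyperoxia mice and between 56.6 and 111 FPKM (median 89.1) in the ATG hyperoxia mice, and 6 of the 12 ATG mice were below every saline mouse. The log2 fold change, ATG minus saline, was -0.50 ± 0.10 (SE, adjusted p = 0.0109, limma). In C3H the ranges did not overlap, at 118 to 161 FPKM with saline and 68.7 to 97.7 FPKM with ATG. In C57B they did, at 84.9 to 133 FPKM (median 111) with saline and 56.6 to 111 FPKM (median 101) with ATG. Whether this difference varied by strain was not tested. Plat was nearest to the threshold among the others (-0.48 ± 0.15 SE, adjusted p = 0.0591, limma) and passed it when the mice were quantile normalized (adjusted p = 0.0386, limma) and without mouse 9, 21, 22 or 31 (lowest adjusted p = 0.0293, limma). Plau went the other way (0.25 ± 0.08 SE, adjusted p = 0.0759, limma) and passed without mice 19 and 33 (0.32, adjusted p = 0.0152, limma) or without mouse 33 alone (adjusted p = 0.0198, limma). Its mean in hyperoxia, saline against ATG, was 17.05 against 33.96 FPKM in C3HM and 22.75 against 23.56 FPKM in C3HF. In C57BM it was 13.85 against 15.26 FPKM, and in C57BF 13.97 against 12.28 FPKM.

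The difference between the hyperoxia effects with and without ATG was tested as an interaction over all 48 mice, in which 2.77% of 16994 genes passed. F2r was the only one of the 7 that did, with -0.82 ± 0.17 on the log2 scale (SE, adjusted p = 0.00887, limma), that is, its rise in hyperoxia was smaller in the ATG mice. In room air F2r was between 60.9 and 135.5 FPKM (median 80.6) in the ATG mice, so that these began higher than the saline mice by their medians and ended lower. The ratio of mean F2r, hyperoxia over room air, was 1.80 in C3H and 1.82 in C57B with saline, and 0.858 in C3H and 1.33 in C57B with ATG, and the strains were not tested against each other here. The call was kept in each of the 48 fits that left out 1 mouse and in the other fits tried. The interaction of Plat was -0.59 ± 0.17 (SE, adjusted p = 0.0573, limma), past the threshold under either scaling and without mouse 2, 9, 20, 21, 22, 26 or 31 (lowest adjusted p = 0.0191, limma). Plau had 0.35 ± 0.11 (SE, adjusted p = 0.0857, limma) and passed without mouse 33 or 40 (lowest adjusted p = 0.0372, limma). The interaction of F3 was -0.32 ± 0.22 (SE, adjusted p = 0.447, limma).

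The strains differed at baseline in 3 of the 7 genes, all higher in C3H than in C57B among the 12 saline room air mice, and 11.8% of 15546 genes passed this test. Tfpi was between 22.9 and 27.8 FPKM (median 25.3) in C3H and between 13.9 and 19.45 FPKM (median 15.9) in C57B. The strains did not overlap, and the log2 difference, C3H minus C57B, was 0.60 ± 0.10 (SE, adjusted p = 0.00280, limma). In the other conditions the medians of Tfpi were also higher in C3H, at 23.2 against 16.7 FPKM in ATG room air, 24.2 against 19.0 FPKM in saline hyperoxia and 23.9 against 19.2 FPKM in ATG hyperoxia, which were not tested.

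Plau was between 5.32 and 10.4 FPKM (median 7.89) in C3H and between 3.81 and 6.07 FPKM (median 5.01) in C57B in saline room air, a log2 difference of 0.51 ± 0.13 (SE, adjusted p = 0.0210, limma). Plaur was between 33.9 and 69.0 FPKM (median 45.6) in C3H and between 21.2 and 47.2 FPKM (median 26.8) in C57B, a log2 difference of 0.66 ± 0.17 (SE, adjusted p = 0.0230, limma). Both overlapped between the strains, and both lost the call without mice 1 and 3 together (adjusted p = 0.103 for Plau and 0.0903 for Plaur, limma). Single mice also decided them, since Plau was lost without mouse 13, 26 or 39 (highest adjusted p = 0.0596) and Plaur without mouse 3, 13, 14, 25 or 26 (highest adjusted p = 0.0618, limma). F3, at 0.23 ± 0.11 (SE, adjusted p = 0.213, limma), passed only without mouse 2 (adjusted p = 0.0469, limma). The median gene differed by -0.097 in this comparison.

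The rise of F3 in hyperoxia was smaller in C3H than in C57B. In C3H, F3 was between 23.0 and 38.2 FPKM (median 32.0) in saline room air and between 117 and 557 FPKM (median 259) in saline hyperoxia, a 9.42-fold ratio of the mean FPKM. In C57B it was between 21.65 and 37.1 FPKM (median 25.2) and between 282 and 709 FPKM (median 529), a ratio of 19.3. The groups overlapped between the strains in both airs. By sex, F3 in saline hyperoxia was between 117 and 221 FPKM in C3HM and between 297 and 557 FPKM in C3HF. It was between 282 and 539 FPKM in C57BM and between 482 and 709 FPKM in C57BF. Whether the strain difference varied by sex was not tested. The strain by hyperoxia interaction in the saline mice was -1.16 ± 0.26 on the log2 scale (SE, adjusted p = 0.00778, limma), at a median of 0.15 over all genes, and 11.5% of all genes passed this test.

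F3 was the only one of the 7 genes to pass, and its interaction was -1.15 after quantile normalization and -1.30 after median ratio scaling. It remained past the threshold without each mouse in turn (-1.31 to -1.02). In the ATG mice the ratio of mean F3 was 7.97 in C3H and 13.5 in C57B, where the strain difference was not tested. Plat had an interaction of -0.85 ± 0.28 (SE, adjusted p = 0.0539, limma) and passed under either of these scalings, without mice 1 and 3, and without mouse 1, 8, 20, 21 or 33 alone (lowest adjusted p = 0.0214, limma). Plaur had -0.98 ± 0.39 (SE, adjusted p = 0.110, limma) and passed without mouse 33 (adjusted p = 0.0307, limma). Thbs1 had -0.97 ± 0.58 (SE, adjusted p = 0.289, limma).

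**Figure D3:**
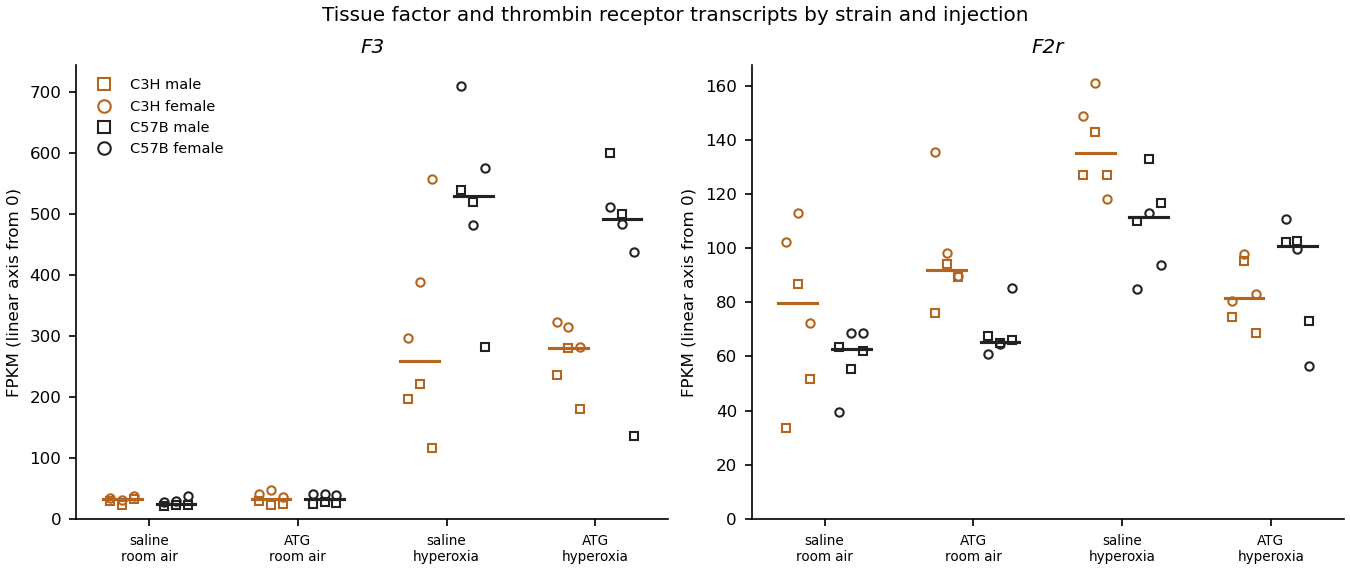
FPKM of F3 and F2r in each mouse on linear axes from 0, by injection and air, with colour for strain, squares for males, circles for females and lines for the median of 6 mice. In saline hyperoxia F3 is between 117 and 557 in C3H and between 282 and 709 in C57B. F2r is lower in the ATG hyperoxia mice (56.6 to 111) than in the saline hyperoxia mice (84.9 to 161), without overlap in C3H and with overlap in C57B.

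Between the sexes at baseline, Plat was lower in males than in females, and 0.669% of all genes tested differed. Plat was between 8.61 and 15.8 FPKM (median 12.2) in the 6 males and between 15.2 and 29.5 FPKM (median 22.3) in the 6 females of the saline room air groups. The log2 difference, male minus female, was -0.80 ± 0.15 (SE, adjusted p = 0.0447, limma), but it lost the call without any 1 of 11 of the 12 mice (all except mouse 2, highest adjusted p = 0.13) and without mice 1 and 3 together (-0.56, adjusted p = 0.183, limma). Thbs1 had -1.01 ± 0.24 (SE, adjusted p = 0.0776, limma), with 5 of 6 males below every female, at 15.1 to 34.8 FPKM in males and 26.1 to 92.3 FPKM in females, and it passed without mouse 2 (adjusted p = 0.0286, limma). Plau passed only without mouse 2 (adjusted p = 0.0356) and Plaur only without mouse 37 (adjusted p = 0.0425, limma) among the fits that left out a mouse. The median gene differed by -0.12 in this comparison.

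None of the 7 genes passed the sex by hyperoxia interaction in the saline mice (limma, adjusted p of at least 0.158), and 0.0368% of all genes did, that is 6 genes, with 2964 at an unadjusted p under 0.05. Of the 7, Plau alone was below this unadjusted p, with -0.59 ± 0.18 on the log2 scale (SE, adjusted p = 0.158, limma), and it passed without mouse 2 or mouse 19 (lowest adjusted p = 0.0469, limma).

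Markers of other cell types moved with hyperoxia. Of 5 neutrophil markers, 4 were higher in hyperoxia with each injection, and their summed FPKM was between 131 and 760 (median 271) in saline room air and between 160 and 6209 (median 871) in saline hyperoxia. With ATG the sum was between 58.1 and 3580 (median 236) in room air and between 153 and 2830 (median 548) in hyperoxia. In C3H the median went from 184 to 198 with saline and from 140 to 729 with ATG, whereas in C57B it went from 449 to 3043 with saline and from 912 to 382 with ATG. Over the 48 mice, r of the neutrophil sum with deviations from the group means was 0.713 for Plaur, 0.712 for Thbs1, 0.554 for Plat and 0.212 for F3, as a description.

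Of 4 monocyte markers, 2 were higher and 1 lower in hyperoxia with saline and 3 were higher with ATG (limma), and the median sum went from 276 to 398 FPKM with saline and from 296 to 381.5 FPKM with ATG. The same r within groups was 0.786 for Plat, 0.674 for Plaur and 0.571 for Thbs1. Of 5 alveolar macrophage markers, 3 were higher and 2 lower with saline, and 0 were higher and 3 lower with ATG. Their sum in saline hyperoxia was between 285 and 658 FPKM in C3H and between 730 and 1751 FPKM in C57B. In saline room air the median sum was 234 FPKM in C3H and 455 FPKM in C57B. The r of this sum with F3 within groups was 0.164. F3 had its largest r within groups with the platelet sum (0.514), the club cell sum (-0.415) and the alveolar type 2 sum (-0.408).

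**Figure D4:**
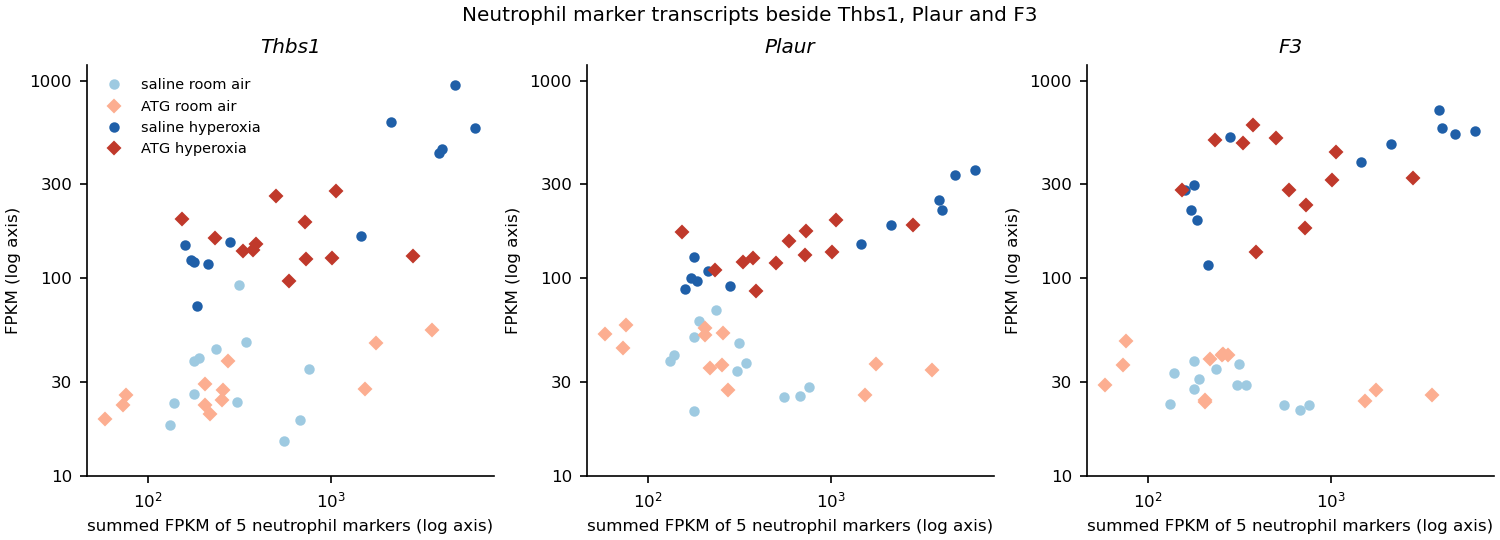
FPKM of Thbs1, Plaur and F3 in each mouse against the summed FPKM of 5 neutrophil markers, both on log axes, by injection and air. The saline hyperoxia mice span sums from 160 to 6209, and the highest Thbs1 (955) and Plaur (352.5) lie at sums above the saline room air range of 131 to 760.

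Of 6 platelet markers, 0 were higher and 2 lower in hyperoxia in the saline mice (limma), and 1 was higher and 1 lower in the ATG mice, with sums between 37.4 and 142 FPKM over the 4 conditions. The r of the platelet sum within groups was 0.514 for F3, 0.496 for Thbs1, 0.486 for Plaur and 0.4275 for Plau. It was 0.308 for Tfpi, 0.299 for Plat and -0.401 for F2r. Of 6 endothelial markers 1 was higher and 3 were lower in the saline mice, with a median sum of 1488 FPKM in room air and 1353 FPKM in hyperoxia. With ATG, 0 endothelial markers were higher and 4 lower, and the median sum was 1589 FPKM in room air and 1032 FPKM in hyperoxia. Of 4 smooth muscle markers 2 were higher and 0 lower, and of 4 fibroblast markers 1 was higher and 1 lower, with each injection. The median fibroblast sum went from 494 to 398 FPKM with saline and from 569.5 to 376 FPKM with ATG. The r of F2r within groups was 0.095 with the endothelial sum, 0.210 with the smooth muscle sum and 0.722 with the fibroblast sum. With the club cell sum it was -0.583. In saline room air the fibroblast marker Mfap4 alone had a median of 350 FPKM, so that the fibroblast sum mostly follows this gene. All 4 of the red cell markers tested and all 4 cardiac muscle markers were lower, as were 4 of 5 alveolar type 2 markers, 3 of 4 alveolar type 1 markers and 3 of 3 club cell markers, with each injection. Red cell sums were between 3341 and 67960 FPKM in saline room air and between 305 and 2004 FPKM in saline hyperoxia. The part of these cell types in the changes of the 7 genes was not tested.

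Other genes of clotting and fibrinolysis were taken from lists of 52 genes, of which 32 were abundant enough to be tested in the saline mice. In hyperoxia 15 of these were higher, 9 lower and 8 did not pass (limma), with a median log2 fold change of 0.24, where 60.1% of all genes passed and 31.8% were higher. In the ATG mice 11 were higher, 9 lower and 12 did not pass, with a median of 0.016, where 61.8% of all genes passed and 35.8% were higher. The clotting factors, the anticoagulant regulators and the plasminogen system each held both higher and lower genes.

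Among the 9 plasminogen system genes tested, 6 were higher and 2 lower with saline. Anxa2 (0.58 ± 0.06, SE) and S100a10 (0.49 ± 0.08, SE), which together form a plasminogen receptor, and Serpine2 (0.41 ± 0.07, SE) were higher, whereas Mrc2 (-0.86 ± 0.13, SE) and Plgrkt, another plasminogen receptor (-0.38 ± 0.11, SE), were lower. Lrp1, an endocytic receptor, was at 0.31 ± 0.12 (SE, adjusted p = 0.0319, limma) and lost its call without mouse 1, 7, 14, 19, 25, 27, 33, 37 or 43 (highest adjusted p = 0.0657). Its call was also lost under quantile normalization (0.13, adjusted p = 0.337, limma) and median ratio scaling (0.20, adjusted p = 0.19, limma), and without mice 19 and 33 (0.21, adjusted p = 0.108, limma).

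All 8 tested genes of the clotting factor list passed with saline, 5 higher and 3 lower, against 60.1% of all genes. Besides clotting factors, this list holds the enzymes Tgm2, Vkorc1 and Ggcx. The transglutaminases Tgm2 (1.58 ± 0.14, SE) and F13a1 (1.42 ± 0.31, SE), of which the latter crosslinks fibrin, and F7 (0.92 ± 0.16, SE), which encodes the partner of tissue factor, were higher. F10 (0.59 ± 0.23, SE) and F5 (0.48 ± 0.16, SE) were also higher, though both lost the call without mice 19 and 33 (adjusted p = 0.0868 for F10 and 0.0626 for F5, limma). F10 also lost it without mouse 13, 19, 26, 33, 37 or 43 alone (highest adjusted p = 0.0684) and under median ratio scaling (0.51, adjusted p = 0.0723, limma). The F10 call rested on mice 1 and 3 as well, without which the value was 0.61. F5 was near the limit of 1 FPKM, with a median of 0.62 FPKM in saline room air. The lower genes were Vkorc1 (-1.29 ± 0.09, SE) and Ggcx (-1.11 ± 0.12, SE), the enzymes of vitamin K recycling and of gamma-carboxylation, and Vwf (-1.01 ± 0.16, SE), which encodes the von Willebrand factor of endothelial cells and platelets.

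The 9 anticoagulant regulators tested were divided. Tfpi2, a relative of Tfpi that inhibits plasmin (2.12 ± 0.48, SE), Procr, the endothelial protein C receptor (1.80 ± 0.14, SE), and Entpd1, which degrades extracellular ATP and ADP (1.42 ± 0.14, SE), were higher with saline. Thbd, which encodes thrombomodulin, the surface protein that turns thrombin towards protein C, was lower (-0.91 ± 0.15, SE), as were Serpind1 (-0.48 ± 0.11, SE) and Serpinc1 (-0.39 ± 0.10, SE), both inhibitors of thrombin. Serpinc1 and Serpind1 were near or under the limit of 1 FPKM, with medians of 1.03 and 0.72 FPKM in saline room air and 0.545 and 0.34 FPKM in saline hyperoxia. Of the other protease activated receptors, F2rl1 was at 0.26 ± 0.10 (SE, adjusted p = 0.0279, limma), and its call was lost under both scalings and without mouse 14, 27, 32 or 44 (highest adjusted p = 0.0590).

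Unlike Thbs1, the related Thbs3 was lower in hyperoxia. It was between 19.7 and 93.5 FPKM (median 30.4) in saline room air and between 2.20 and 14.5 FPKM (median 6.07) in saline hyperoxia, without overlap. The log2 fold change of Thbs3 was -2.41 ± 0.20 with saline (SE, adjusted p = 3.95e-09, limma) and -2.59 ± 0.19 with ATG (SE, adjusted p = 2.32e-10, limma).

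Transcripts of the plasma substrates of the system were near 0. Fga, Fgb and Fgg, the chains of fibrinogen, Plg, the gene of plasminogen, and F2, the gene of prothrombin, did not exceed 1.09 FPKM in any of the 48 mice and were not tested. F8, F9, F13b and Serpina5 were listed at 0 in all mice, F8 and F9 being on chromosome X, where every gene of the table was at 0.

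**Figure D5:**
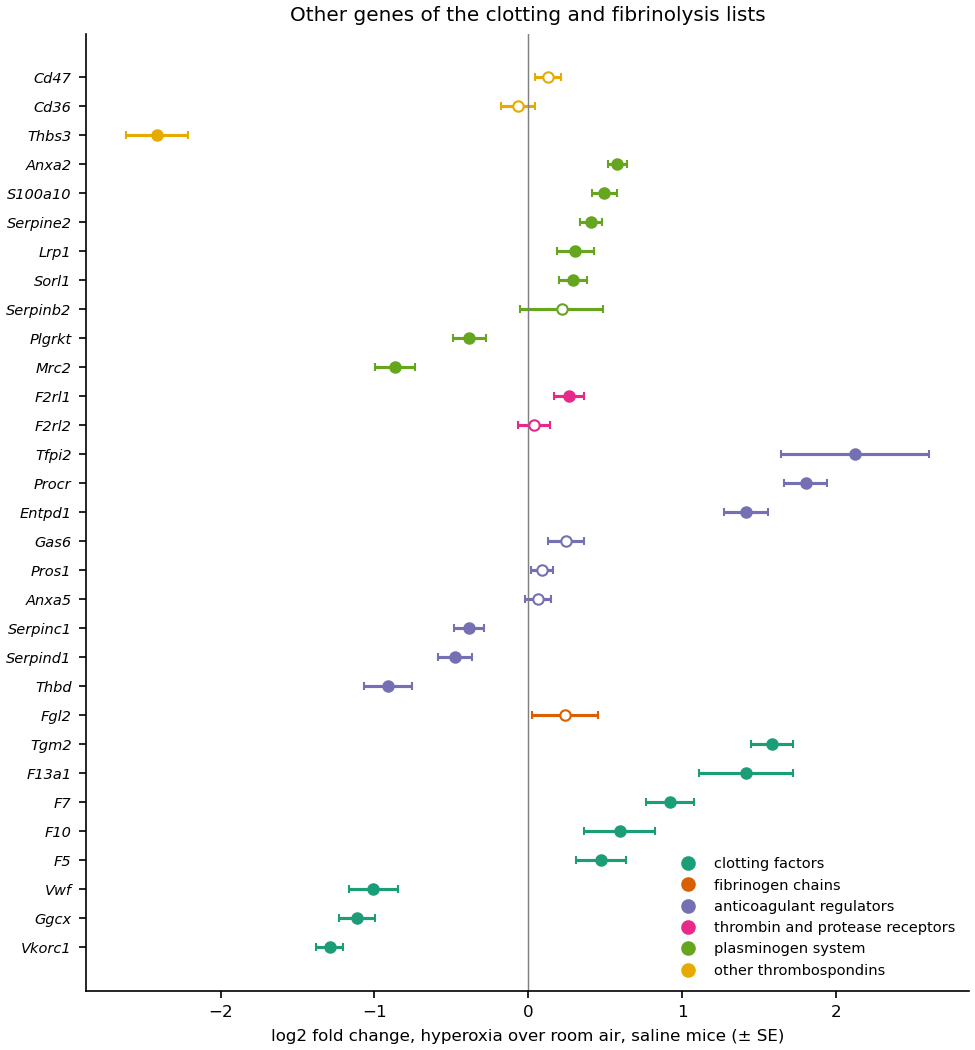
Log2 fold change of hyperoxia over room air in the saline mice, with bars for ± SE, for the other clotting and fibrinolysis genes reported here, coloured by list, with filled points for genes past the threshold. Tfpi2 is highest at 2.12 and Thbs3 lowest at -2.41, and genes on both sides of 0 are found among the clotting factors, the anticoagulant regulators and the plasminogen system.

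Of 32 of these genes tested, 2 passed the ATG by hyperoxia interaction, against 2.77% of all genes. Thbd passed at -0.95 ± 0.19 on the log2 scale (SE, adjusted p = 0.00698, limma), with a log2 fold change in hyperoxia of -0.91 in the saline mice and -1.86 in the ATG mice. F7 passed at -0.77 ± 0.22 (SE, adjusted p = 0.0438, limma) but was lost in 28 of the 48 fits that left out 1 mouse (highest adjusted p = 0.0763). Its call also rested on mice 1 and 3, without which the value was -0.67. In the strain by hyperoxia interaction 5 were higher and 2 lower, against 11.5% of all genes. Procr had -2.92 ± 0.28 (SE, adjusted p = 2.73e-06, limma), and at baseline it was higher in C3H by 2.25 ± 0.24 (SE, adjusted p = 6.69e-05, limma) without overlap. Ggcx (1.29), Vkorc1 (1.03) and Serpind1 (0.83) had interactions of the opposite sign. Serpind1 lost its call under quantile normalization (0.63, adjusted p = 0.0751, limma). That call also rested on mice 1 and 3, without which the value was 0.70. At baseline 2 of 31 were higher and 5 lower in C3H, against 11.8% of all genes, and Entpd1 (-1.04), F13a1 (-0.77), Serpind1 (-0.71) and Serpine2 (-0.52) were among the lower, all log2. The calls of Entpd1, F13a1 and Serpind1 rested on mice 1 and 3, without which the values were -0.70, -0.63 and -0.58. F13a1 also lost its call with all 48 mice fitted (adjusted p = 0.188, limma).

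The transcripts whose levels followed each of the 7 genes most closely were sought by Pearson's r of log2(FPKM + 1) over the 48 mice, among 16993 genes. The mice fall into room air and hyperoxia groups and share strain and injection, so that r over all mice mostly follows these groups, and r of the deviations from the 16 group means is given beside it. F3 was most like the metallothioneins Mt2 (r = 0.973, 0.504 within groups) and Mt1 (0.970, 0.458 within groups). Plat was most like Akap12 (0.972, 0.648 within groups) and Ampd3 (0.970, 0.656 within groups), and Plau like Ier5l (0.947, 0.527 within groups) and Lgmn (0.930, 0.288 within groups).

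Plaur was most like P2ry2 (r = 0.963, 0.771 within groups), and Thbs1 like Gfpt2 (0.953, 0.652 within groups) and Noct (0.949, 0.772 within groups). F2r was most like Myo1c (0.864, 0.871 within groups) and Timp3 (0.849, 0.751 within groups). The closest transcripts to Tfpi, Rps3a3 (0.798, 0.269 within groups) and Dynlt1c (0.796, 0.412 within groups), were less alike. Among the 7 themselves, F3 and Plat had the highest r over all mice (0.954, 0.430 within groups), and Plaur and Thbs1 the highest within groups (0.776).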

How the data were processed

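The authors aligned reads of polyA-selected lung RNA to mm10 with GSNAP, and FPKM came from Cufflinks. SAMtools is also named in the submitters' processing notes. The deposited table holds these FPKM values for 47561 genes and 48 mice. The annotation release and the handling of reads with several matches are not given in the sources used here. One gene with failed estimates was left out. Absolute depth is unknown, so precision comes from the spread between mice.

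The fits used limma 3.58.1 (R 4.3.3, eBayes with trend) on log2(FPKM + 1) for genes with FPKM of at least 1 in at least 3 fitted mice, with Benjamini-Hochberg adjustment over all genes tested and a threshold of 0.05. Hyperoxia was fitted in the 24 mice of each injection, ATG in the 24 mice of each air, strain and sex in the 12 saline room air mice, strain and sex by hyperoxia in the 24 saline mice, and ATG by hyperoxia in all 48. Simulated data with 200 changed genes served to test the fits. Sequences came from RefSeq (GRCm38.p6), coordinates from GENCODE M21.

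The 7 genes, the lists and the comparisons were chosen with earlier results of these data known. Named were the 7 genes in every comparison, the genes of the lists past the threshold in hyperoxia in saline mice (at most 5 per list and direction), genes of the lists at 0 in all mice and the 2 transcripts most like each of the 7. Results of these named genes in other comparisons, and the transcripts near 0, were chosen for mention after their values were seen. Results for 1 gene that this rule names are not reported here, though the counts over the lists include it. The alternatives were a pseudocount of 0.1, no filter on low values, quantile normalization, scaling by the median ratio, eBayes without trend, a fit of all 48 mice, leaving out each mouse in turn, leaving out mice 1 and 3, and, chosen after seeing the data, leaving out mice 19 and 33.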

Additional observations from a re-analysis of the deposited data

Results flagged for a closer look

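Among 56 groups of 6 mice (7 genes in each strain, injection and air), 6 had a highest or lowest mouse set apart from the others by Dixon's ratio, whose critical value is 0.625, and chance alone gives this in about 5% of groups. Thbs1 (579 FPKM, ratio 0.820) and Plaur (352.5 FPKM, ratio 0.797) were both highest in mouse 33 among the C3H mice in saline hyperoxia. Plaur was highest in mouse 48 among the C57B mice in ATG hyperoxia (198 FPKM, ratio 0.636), and F3 was lowest in mouse 24 of the same condition and strain (136 FPKM, ratio 0.651). F2r was highest in mouse 28 among the C3H mice (135.5 FPKM, ratio 0.629) and in mouse 42 among the C57B mice (85.1 FPKM, ratio 0.722), both in ATG room air.

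Between groups, 2 differences passed a test of the difference itself. The hyperoxia effect on F2r was smaller with ATG than with saline (interaction -0.815 on the log2 scale), and that on F3 was smaller in C3H than in C57B among the saline mice (interaction -1.16 on the log2 scale).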

How the results depend on the processing

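No paired analysis was possible because every mouse carries its own number and the groups share none. Of 455 values of the 7 genes under alternatives other than leaving out 1 mouse, 417 kept their direction and side of the threshold, 5 lost and 15 gained a call, and 18 changed sign, all of values that had not passed the test. Of the 7 genes, 6 passed for hyperoxia in saline mice, 5 in ATG mice and 0 for ATG in room air under each alternative run. Where a count or sign changed, the cause was not tested.

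For strain by hyperoxia 1 of the 7 genes passed, against 2 under quantile normalization, median ratio scaling, without mice 1 and 3 or without mice 19 and 33, 3 with all 48 mice fitted, and 1 to 3 leaving out 1 mouse. For ATG in hyperoxia the count was 1, against 2 under quantile normalization, with all 48 mice or without mice 19 and 33. For ATG by hyperoxia it was 1, against 2 under either scaling or without mice 19 and 33, and both counts were 1 to 2 leaving out 1 mouse. For strain in room air it was 3, against 1 without mice 1 and 3 and 1 to 4 leaving out 1 mouse. For sex in room air it was 1, against 0 without the filter, without trend or without mice 1 and 3, 3 with all 48 mice, and 0 to 3 leaving out 1 mouse. For sex by hyperoxia it was 0, against 1 with all 48 mice and 0 to 1 leaving out 1 mouse.

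The values that changed sign, all log2, were as follows. Tfpi in hyperoxia became -0.020 (quantile) and -0.019 (median ratio) with saline and -0.061 and -0.054 with ATG, and F2r with ATG became -0.14 and -0.047. For strain by hyperoxia, F2r became -0.065 (median ratio) and -0.27 (without mice 1 and 3) and Plau 0.0094 (without mice 1 and 3). For sex by hyperoxia, Plat became -0.036 (quantile), -0.10 (median ratio), -0.21 (without mice 1 and 3) and -0.11 (without mice 19 and 33), and Thbs1 -0.11 (median ratio) and -0.078 (without mice 19 and 33). Without mice 1 and 3, Plat for ATG in room air became -0.016 and Tfpi for ATG by hyperoxia 0.012. Without mice 19 and 33, Plaur for ATG in hyperoxia became 0.11. Leaving out 1 mouse gave both signs for Plau (-0.15 to 0.027) and F2r (-0.088 to 0.25) in strain by hyperoxia, for Plat (-0.16 to 0.16) and Thbs1 (-0.42 to 0.37) in sex by hyperoxia, for F3 (-0.25 to 0.021) and Tfpi (-0.077 to 0.0081) in ATG in hyperoxia, and for Tfpi in ATG in room air (-0.055 to 0.0021), ATG by hyperoxia (-0.045 to 0.040) and sex in room air (-0.039 to 0.075).

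Over all genes, the count past the threshold moved from 6 to 3 (quantile), 2 (median ratio), 306 (all 48 mice) and 627 (without mice 19 and 33) for sex by hyperoxia, from 104 to 40 (no filter), 1915 (all 48 mice) and 30 (without mice 1 and 3) for sex in room air, from 1832 to 2982 and from 1880 to 2994 (all 48 mice) for strain and strain by hyperoxia, from 470 to 313 (no filter) for ATG by hyperoxia, and from 3 to 5 (no filter, and without mice 1 and 3) for ATG in room air. The higher genes were 1422 of 1880 for strain by hyperoxia, against 870 of 1720 (quantile) and 1059 of 1936 (median ratio), 617 of 868 for ATG in hyperoxia, against 355 of 767 and 288 of 660, 265 of 470 for ATG by hyperoxia, against 185 of 530 and 185 of 524, 609 of 1832 for strain, against 948 of 1892 and 842 of 1916, 37 of 104 for sex, against 49 of 91 and 38 of 78, and 5802 of 10018 for hyperoxia with ATG, against 4649 of 10010 (median ratio). Leaving out 1 mouse, the count for sex in room air was 20 to 3640 and moved by over 1.5 times with each of the 12 mice, and that for sex by hyperoxia was 2 to 1270. The counts for strain and strain by hyperoxia moved that far only without mouse 2, to 4021 and 3242, and those for hyperoxia with no mouse. The ranges were 443 to 1096 for ATG in hyperoxia, 243 to 1093 for ATG by hyperoxia and 3 to 32 for ATG in room air.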

Other observations

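Within the 16 groups of 3 mice, some ranges of single genes were apart in ways that no comparison above was built for. They were noticed in the values and were not tested. F3 in ATG room air was between 23.6 and 28.8 FPKM in C3HM and between 23.9 and 27.2 FPKM in C57BM, against 36.6 to 48.0 FPKM in C3HF and 39.0 to 40.95 FPKM in C57BF, so that no male was as high as a female. Plau in hyperoxia was between 31.5 and 36.4 FPKM in the C3HM mice given ATG and between 14.2 and 19.7 FPKM in those given saline, whereas in C57BM it was between 13.2 and 16.9 FPKM with ATG and between 12.5 and 15.4 FPKM with saline. In C3HF it was between 21.55 and 27.5 FPKM with ATG and between 17.8 and 29.7 FPKM with saline. In C57BF it was between 10.8 and 13.1 FPKM with ATG and between 13.0 and 15.5 FPKM with saline. Thbs1 in hyperoxia was between 430.5 and 623 FPKM in the C57BF mice given saline and between 137 and 277 FPKM in those given ATG.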
